A study of Mus musculus with 6 samples.

Results

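The genes described here are 33 transcripts that mark retinal ganglion cells or build and extend their axons, read from whole retinas of wild-type (WT) and Wfs1-KO mice. They were chosen by name, 33 of the 55376 genes in the count table, and fall into 5 classes by role: 6 markers found in nearly all ganglion cells, 8 transcription factors and RNA-binding factors, 8 genes that mark ganglion cell subtypes, 5 genes of neurofilaments and peripherin, and 6 genes of axon growth and microtubules. All 33 of 33 passed the filter on low counts, among 18547 genes tested. RNA-seq was run on retinas of 3 WT and 3 Wfs1-KO mice, a different mouse for each library, at 240 days of age. Both groups carry the strain label C57x129, whereas the methods describe a C57BL/6 J background. The Wfs1-KO mice carry a targeted deletion of exon 8 of Wfs1, which encodes wolframin, a membrane protein of the endoplasmic reticulum, as a germline allele present in all cell types. The mice were studied as a model of Wolfram syndrome, in which the optic nerve degenerates, and the comparison addresses the state of the retina at an age chosen to come before visible changes in its structure.

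Ganglion cells are the output neurons of the retina. They are a small minority of retinal cells, gather signals from bipolar and amacrine cells, and send long axons through the optic nerve to the brain. Their axons are filled with neurofilaments, polymers of light (Nefl), medium (Nefm) and heavy (Nefh) subunits with alpha-internexin (Ina) or peripherin (Prph), which set axon calibre and with it conduction speed. Many of the genes in the list become less abundant early after damage to the optic nerve, which is why they are used as readouts of ganglion cell state. In RNA from a whole retina, fewer ganglion cells and less RNA per ganglion cell cannot be told apart.

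Promoter sequence, 250 bases before to 50 after the transcription start, was matched in RefSeq (GRCm38.p6) for 21 of the 33 genes, and no entry was matched for Rbpms, Thy1, Nrn1, Pou4f3, Foxp2, Chrna6, Chrnb3, Nefl, Nefm, Nefh, Stmn2 and Gap43. Among the filament genes the entries were those of Ina at chr19:47014431-47014730 on the plus strand and of Prph at chr15:99054924-99055223 on the plus strand. They are shown because these alternative partners in the same filament network differ widely in level, as given with the filament values. Capitals mark TATAAA and GGGCGG on either strand, the latter read as CCGCCC on the strand printed.
Ina: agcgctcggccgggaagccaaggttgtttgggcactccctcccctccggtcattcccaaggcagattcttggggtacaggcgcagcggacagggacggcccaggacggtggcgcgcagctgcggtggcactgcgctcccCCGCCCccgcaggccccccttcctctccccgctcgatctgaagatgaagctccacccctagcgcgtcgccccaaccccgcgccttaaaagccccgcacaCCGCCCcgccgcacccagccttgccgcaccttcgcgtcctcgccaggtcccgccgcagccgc
Prph: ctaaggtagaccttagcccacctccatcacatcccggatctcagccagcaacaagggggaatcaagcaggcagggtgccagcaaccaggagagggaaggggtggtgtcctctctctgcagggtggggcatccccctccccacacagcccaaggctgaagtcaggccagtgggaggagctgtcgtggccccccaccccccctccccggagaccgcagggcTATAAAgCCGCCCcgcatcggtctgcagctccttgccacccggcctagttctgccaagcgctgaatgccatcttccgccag
Of 4 motifs searched on both strands, GGGCGG was present in 14 of the 21 promoters and in 35.7% of 32851 mouse promoters of the same length, CCAAT in 8 of 21 and 37.4%, TATAAA in 1 of 21, that of Prph, and 13.6%, and ATNNNTAAT, a core of POU-factor sites, in 1 of 21, that of Eomes, and 9.60%. The Ina window held 2 matches to GGGCGG and none to TATAAA, while the Prph window held 1 of each, side by side. These matches are descriptions of letters and say nothing on whether a factor binds there.

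Ganglion cell genes were well measured in every retina. Levels are given as CPM (counts scaled by library size and by the TMM factors of edgeR) and are compared between genes only after division by exon length (CPM per kb). In the WT retinas Uchl1, a ubiquitin hydrolase abundant in neurons, had the highest level with 158 ± 35.3 CPM per kb (SD, n = 3), followed by Stmn3 with 145 ± 31.4, Sncg with 136 ± 23.8, Thy1 with 131 ± 16.7, Nefl with 108 ± 13.8 and Cartpt with 104 ± 15.3 CPM per kb. The WT ranges of neighbours within these first 6 overlapped, so that their order is not resolved. Tubb3 followed with 73.8 ± 10.8 CPM per kb, below every WT value of Cartpt. At the other end stood Tbr1 with 0.809 ± 0.0643, Foxp2 with 0.422 ± 0.108 and Sox11 with 0.249 ± 0.0705 CPM per kb. The ranges of neighbours in the whole order were apart for 11 of 32 pairs. The lowest count of any of the 33 genes in any retina was 26, for Sox11, and the median over genes of the lowest count was 824. Uchl1, Thy1, Stmn3 and the filament genes are also made by other neurons, and Slc17a6, Isl2, Sncg, Rbpms and Rbpms2 are closer to ganglion cells alone.

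Total counts ranged from 17916885 in WT replicate 3 to 101334381 in Wfs1-KO replicate 1. Wfs1 itself was at 64.9, 61.4 and 69.9 CPM in WT and 9.63, 0.900 and 11.5 CPM in Wfs1-KO replicates 1, 2 and 3, lower in every Wfs1-KO retina as the labels say. Wfs1-KO replicate 2 stood apart, with a mean Pearson correlation of 0.918 to the other 5 libraries across genes, against 0.962 to 0.971 for each of those, and it had 345 CPM summed over 12 microglia and macrophage markers and 481 over 7 blood markers, where the other 5 retinas had 47.4 to 73.4 and 12.3 to 41.3 CPM. Each result is therefore given with all 6 retinas and without that retina.

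In all 6 retinas genes that mark ganglion cell identity lay on both sides of their WT levels. When the Wfs1-KO retina that stood apart was left out, the lower values with the smallest p were those of neurofilament subunits. Nefh, Nefl and Nefm then had log2 fold changes of -0.42, -0.36 and -0.39. The identity genes Pou4f3, Nrn1 and Pou4f1 were close to these, at -0.33, -0.32 and -0.29 in the same fit. With all 6 retinas only Nefh of the 3 subunits had a smaller unadjusted p (edgeR) than Nrn1 and Pou4f3. None of the 33 genes differed between genotypes past the threshold, an adjusted p of 0.05 by the quasi-likelihood test of edgeR, with p-values adjusted over all genes tested after Benjamini and Hochberg. In all 6 retinas the counts were 0 of 33 and 2 of 18547 genes tested (0.0108%), and without Wfs1-KO replicate 2 they were 0 of 33 and 24 of 19178 (0.125%). At an unadjusted p under 0.05 (edgeR's test, before adjustment) 1 of the 33 genes was higher, Foxp2, and 1 lower, Nefh, in all 6 retinas, where 2.24% of all genes tested were higher and 0.566% lower. Without Wfs1-KO replicate 2 there were 3 lower, Nefl, Nefm and Nefh, and 0 higher, against 2.39% and 2.80% of all genes. Over 33 genes each of these shares comes to fewer than 1 gene. DESeq2 also gave 0 of 33, against 0.246% of genes in all 6 retinas and 0.475% without that retina. Differences are given as log2FC, the log2 fold change of Wfs1-KO over WT, with its standard error (SE). The median log2FC of the 33 genes was -0.0035 in all 6 retinas, with 16 positive and 17 negative, and the median of all genes tested was 0.02, with 52.8% positive. Without Wfs1-KO replicate 2 the median was -0.11, with 9 positive and 24 negative, whereas the median of all genes was -0.00038, with 50.1% negative.

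The intervals bound the difference of each gene taken alone, without adjustment over all genes. The 95% interval of the log2FC extended a median of 0.54 to either side over the 33 genes in all 6 retinas, and 0.35 without Wfs1-KO replicate 2. For 31 of the 33 genes it lay above a fall to a 2-fold lower level in either fit. A fall by 1.5-fold lay outside the interval for 20 genes in all 6 retinas and for 21 without Wfs1-KO replicate 2. It lay within the interval for the others, where a loss of that size could go undetected. The threshold after adjustment is stricter than these intervals, so that larger differences could also miss it. Foxp2, with a log2FC of 1.39 in all 6 retinas, had an adjusted p of 0.979 (edgeR).

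**Figure D1:**
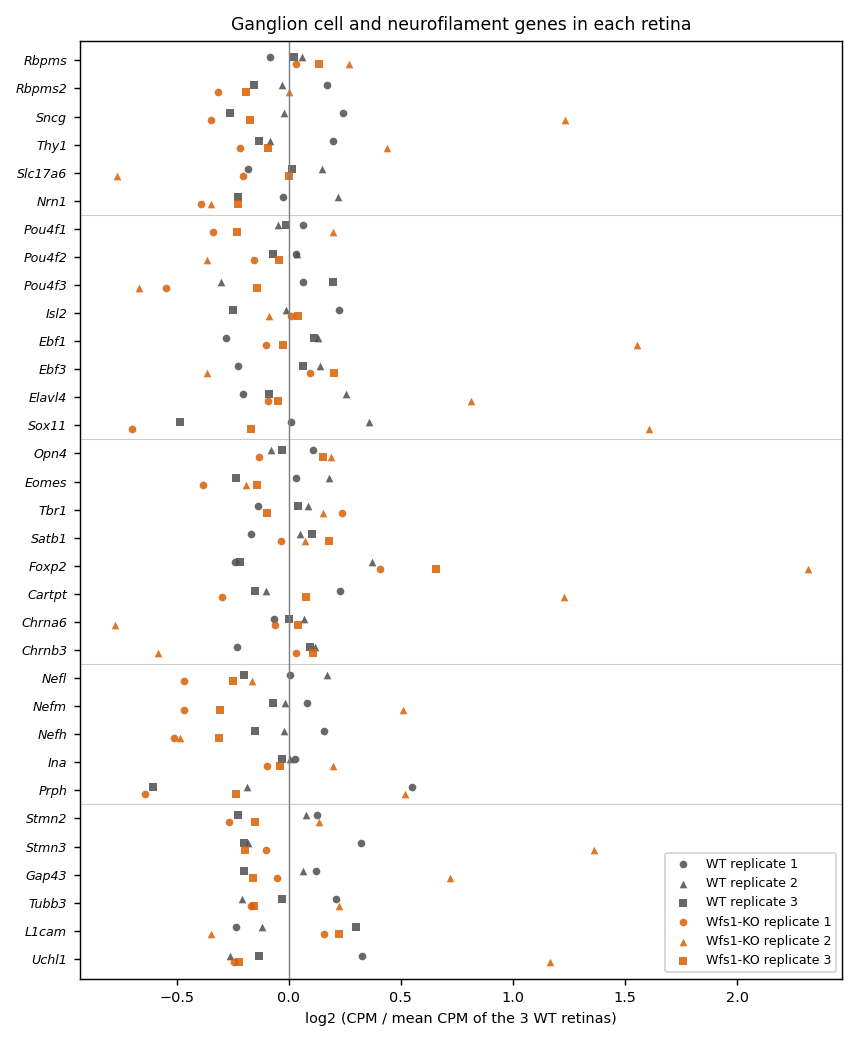
Level of each of the 33 genes in each retina as log2 of its CPM over the mean CPM of the 3 WT retinas (x axis), genes grouped by role from the top: pan-ganglion cell markers, transcription and RNA-binding factors, subtype genes, filament genes, axon growth genes. Grey symbols are WT and orange are Wfs1-KO, with a circle, triangle and square for replicates 1, 2 and 3. Wfs1-KO replicate 2 was above the other 5 retinas for 17 genes, and Wfs1-KO replicate 1 was the lowest of the 6 for 15.

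Of the 6 markers shared by nearly all ganglion cells, 3 were positive and 3 negative in all 6 retinas, and 5 were negative without Wfs1-KO replicate 2. Rbpms, an RNA-binding protein used to count ganglion cells in retinal sections, was at 34.9, 38.5 and 37.6 CPM in WT and at 37.8, 44.6 and 40.6 CPM in Wfs1-KO replicates 1, 2 and 3. The groups overlapped, with the highest value in Wfs1-KO replicate 2. Its log2FC was 0.15 (95% interval -0.23 to 0.52) in all 6 retinas and 0.08 (-0.22 to 0.37) without that retina. Its paralog Rbpms2 was at 35.8, 31.2 and 28.6 CPM in WT and at 25.6, 31.9 and 27.9 CPM in Wfs1-KO retinas, and Wfs1-KO replicates 1 and 3 were below every WT retina. The log2FC of Rbpms2 was -0.16 (SE 0.18) and, without Wfs1-KO replicate 2, -0.26 (SE 0.15). The 2 paralogs thus lay on opposite sides of no change, each with an interval that held 0.

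Slc17a6, the vesicular glutamate transporter that ganglion cells use at their terminals, was at 69.4, 87.3 and 79.5 CPM in WT and 68.2, 46.2 and 78.8 CPM in Wfs1-KO retinas. Its low value in Wfs1-KO replicate 2 set the log2FC of -0.29 (SE 0.23), which was -0.10 (SE 0.15) without it. Sncg, or gamma-synuclein, a protein of ganglion cell bodies and axons, was instead high in that retina, with 137, 115 and 96.8 CPM in WT and 91.3, 273 and 103 CPM in Wfs1-KO retinas. The value of 273 CPM lay above all others, and the log2FC changed from 0.42 (SE 0.42) to -0.27 (SE 0.16) when that retina was left out. Thy1, a surface glycoprotein that is among the first transcripts to drop in optic nerve injury models, was at 281, 232 and 223 CPM in WT and 211, 332 and 230 CPM in Wfs1-KO retinas, overlapping between groups, with a log2FC of 0.07 (SE 0.22) that became -0.16 (SE 0.14).

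Nrn1, or neuritin, a membrane-anchored protein that promotes neurite growth, had 60.1, 71.1 and 52.3 CPM in WT and 46.6, 48.1 and 52.2 CPM in Wfs1-KO retinas. Every Wfs1-KO retina was below every WT retina, though Wfs1-KO replicate 3 lay next to WT replicate 3. Its log2FC was -0.32 (SE 0.18) in all 6 retinas and -0.32 (SE 0.16) without Wfs1-KO replicate 2, neither of which passed the threshold (edgeR adjusted p of 0.979 and 0.963). In all 6 retinas Nrn1 and Nefh were the 2 genes of the list without overlap in the lower direction, where 3.94% of all genes tested had none, and Foxp2 was the 1 gene in the higher direction, where 5.01% had none. Without Wfs1-KO replicate 2 there were 7 in the lower direction, Rbpms2, Nrn1, Pou4f1, Nefl, Nefm, Nefh and Ina, against 11.0% of all genes, and 1 in the higher direction, again Foxp2, against 11.4%. The class of 6 markers had a median log2FC of -0.05 with all 6 retinas and -0.21 without Wfs1-KO replicate 2, with 5 of the 6 then negative.

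Among the transcription factors that specify ganglion cells, the POU-domain genes had negative log2FCs in both fits. Pou4f1, or Brn3a, the most used nuclear marker of ganglion cells, was steady in WT at 49.4, 45.6 and 46.8 CPM and was at 37.3, 54.1 and 40.2 CPM in Wfs1-KO retinas. Wfs1-KO replicates 1 and 3 were below every WT retina and replicate 2 above, so that the log2FC of -0.11 (SE 0.19) became -0.29 (95% interval -0.59 to 0.00) when replicate 2 was left out. Pou4f2, or Brn3b, needed for ganglion cell development, had 12.4, 12.5 and 11.6 CPM in WT and 10.9, 9.45 and 11.8 CPM in Wfs1-KO retinas, overlapping by 1 retina, with a log2FC of -0.18 (SE 0.18). Pou4f3, or Brn3c, present in fewer ganglion cells, had 7.03, 5.46 and 7.72 CPM in WT and 4.61, 4.24 and 6.11 CPM in Wfs1-KO retinas. Its log2FC was -0.43 (SE 0.26) in all 6 retinas and -0.33 (SE 0.23) without Wfs1-KO replicate 2, and WT replicate 2 lay within the Wfs1-KO range.

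The other factors had no common sign. Isl2, a LIM-homeodomain factor of contralaterally projecting ganglion cells, had 8.51, 7.23 and 6.13 CPM in WT and 7.34, 6.84 and 7.49 CPM in Wfs1-KO retinas, all within the WT range, with a log2FC of -0.02 (SE 0.21). Ebf3, an early B-cell factor of postmitotic ganglion cells that is also present in amacrine cells, had a log2FC that was negative by less than 0.01 in all 6 retinas and was 0.14 (SE 0.15) without Wfs1-KO replicate 2. Its paralog Ebf1 was at 30.8 to 41.0 CPM in WT and at 34.9, 110 and 36.7 CPM in Wfs1-KO replicates 1, 2 and 3. The value in replicate 2 alone lay outside the WT range, and the log2FC went from 0.69 (SE 0.45) to -0.07 (SE 0.16) without it. Elavl4, an RNA-binding protein of neurons, and Sox11, a factor of immature neurons that is also raised in injured ganglion cells, behaved alike, with 62.3 and 6.30 CPM in Wfs1-KO replicate 2 against 33.2 and 34.3 CPM for Elavl4 and 1.27 and 1.84 CPM for Sox11 in replicates 1 and 3. The WT ranges were 30.7 to 42.3 CPM for Elavl4 and 1.48 to 2.65 CPM for Sox11. The log2FC of Elavl4 went from 0.29 (SE 0.29) to -0.08 (SE 0.16) without Wfs1-KO replicate 2. That of Sox11 went from 0.58 (SE 0.62) to -0.45 (SE 0.33). The class of 8 had a median log2FC of -0.01, and -0.09 without Wfs1-KO replicate 2.

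Most genes that mark single ganglion cell subtypes lay near their WT levels. Opn4, the melanopsin photopigment of intrinsically photosensitive ganglion cells, was at 4.19, 3.68 and 3.80 CPM in WT and 3.54, 4.43 and 4.31 CPM in Wfs1-KO retinas, overlapping throughout, with a log2FC of 0.07 (95% interval -0.49 to 0.63). Eomes, or Tbr2, the factor that maintains those cells, was at 9.76, 10.8 and 8.12 CPM in WT and 7.32, 8.36 and 8.65 CPM in Wfs1-KO retinas. Its log2FC was -0.24 (SE 0.21), with an interval from -0.72 to 0.24. Tbr1, a T-box factor of ganglion cells that stratify in the OFF layer, had 3.01 to 3.51 CPM in WT and 3.09 to 3.90 CPM in Wfs1-KO retinas, and Satb1, a chromatin organiser of direction-selective ganglion cells, 26.3 to 31.7 and 28.8 to 33.4 CPM, with log2FCs of 0.10 (SE 0.25) and 0.08 (SE 0.17).

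The neighbouring nicotinic receptor genes Chrna6 and Chrnb3 on chromosome 8, whose products join in 1 receptor, were both low in Wfs1-KO replicate 2. Chrna6 had 115, 126 and 120 CPM in WT and 115, 70.1 and 123 CPM in Wfs1-KO retinas, and Chrnb3 had 68.8, 87.7 and 86.3 CPM in WT and 82.8, 54.0 and 87.1 CPM in Wfs1-KO retinas. Wfs1-KO replicates 1 and 3 lay near or within the WT range, and without replicate 2 the log2FCs were -0.02 (95% interval -0.29 to 0.26) and 0.07 (-0.25 to 0.38). Cartpt, a neuropeptide precursor of direction-selective ganglion cells and of amacrine cells, had 155, 123 and 119 CPM in WT and 108, 311 and 140 CPM in Wfs1-KO retinas, and its log2FC of 0.49 (SE 0.39) became -0.11 (SE 0.17).

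Foxp2, a forkhead factor of a group of small-field ganglion cells that other retinal and non-neuronal cells can also express, was the gene of the list with the largest positive difference. It was at 3.46, 5.30 and 3.52 CPM in WT and at 5.42, 20.4 and 6.45 CPM in Wfs1-KO retinas, so that every Wfs1-KO retina was above every WT retina, the closest pair being Wfs1-KO replicate 1 and WT replicate 2. The log2FC was 1.39 (SE 0.53, adjusted p = 0.979, edgeR) in all 6 retinas and 0.52 (SE 0.24, adjusted p = 0.962, edgeR) without Wfs1-KO replicate 2. The larger part of the difference on the log2 scale was thus gone when the retina that stood apart was left out. For the class of 8 subtype genes the median was 0.07 in all 6 retinas and 0.03 without Wfs1-KO replicate 2.

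Transcripts of the neurofilament triplet were below every WT retina in 2 or in all 3 Wfs1-KO retinas, without passing the threshold. Nefh, the heavy subunit, whose phosphorylated tail projects from the filament in mature large axons, lies at chr11:4938754-4948064 of mm10 on the minus strand. It was at 135, 119 and 109 CPM in WT and at 84.7, 86.2 and 97.4 CPM in Wfs1-KO retinas, and no Wfs1-KO retina reached the lowest WT value. The log2FC was -0.43 (SE 0.17, adjusted p = 0.979, edgeR) in all 6 retinas and -0.42 (SE 0.15, adjusted p = 0.753, edgeR) without Wfs1-KO replicate 2, and it was between -0.52 and -0.35 in every fit that left out 1 retina. Nefh was the 1 filament gene whose difference was of the same size with and without the retina that stood apart and whose groups did not overlap in either case.

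Nefl, the light subunit on which the other subunits assemble, and Nefm, the medium subunit, lie side by side on chromosome 14, at 68083863 to 68089095 on the plus strand and 68082590 to 68124846 on the minus strand, and share 1108 exonic bases on opposite strands. Whether the counting used strand is not given in the sources used here, so reads in the shared bases cannot be told apart. Nefl was at 368, 413 and 319 CPM in WT and at 265, 327 and 309 CPM in Wfs1-KO retinas, with only Wfs1-KO replicate 2 above the lowest WT retina. Its log2FC was -0.29 (SE 0.18) in all 6 retinas and -0.36 (SE 0.15, adjusted p = 0.879, edgeR) without that retina. Nefm was at 199, 186 and 179 CPM in WT and at 136, 268 and 152 CPM in Wfs1-KO retinas. Here replicates 1 and 3 were below every WT retina and replicate 2 above every other retina, so that the log2FC was -0.02 (SE 0.27) in all 6 retinas and -0.39 (SE 0.13, adjusted p = 0.711, edgeR) without that retina.

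**Figure D2:**
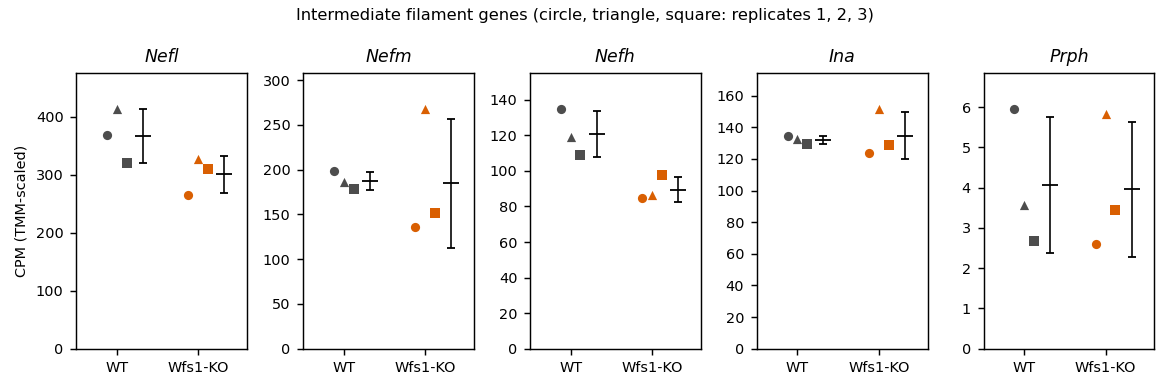
CPM of the 5 filament genes (y axes from 0, a panel each) in the 3 WT (grey) and 3 Wfs1-KO (orange) retinas, with the mean and SD of each group as bars beside the points. The 3 Wfs1-KO points of Nefh sit between 84.7 and 97.4 CPM, below the WT points from 109 to 135, while for Nefm the point at 268 CPM is that of Wfs1-KO replicate 2.

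Ina, or alpha-internexin, the partner subunit of neurofilaments in central neurons whose promoter is printed above, was the steadiest filament gene in WT, at 135, 133 and 130 CPM, and was at 124, 151 and 129 CPM in Wfs1-KO retinas. Wfs1-KO replicates 1 and 3 were below every WT retina by a small margin, and the log2FC was 0.02 (95% interval -0.35 to 0.40) in all 6 retinas and -0.07 (-0.35 to 0.20) without replicate 2. Exons of Ina share 456 bases on the opposite strand with Nt5c2, which had a mean of 76.3 CPM in WT. Prph, or peripherin, mostly a protein of peripheral neurons, was at 2.18 ± 0.908 CPM per kb in WT, against 40.8 ± 0.777 for Ina. It had 5.95, 3.57 and 2.67 CPM in WT and 2.60, 5.83 and 3.45 CPM in Wfs1-KO retinas, overlapping between groups. The interval of its log2FC was wide, from -1.04 to 0.94 in all 6 retinas. Without Wfs1-KO replicate 2 the log2FC of Prph was -0.47 (SE 0.33), the most negative of the 33 genes in that fit. The 5 filament genes had a median log2FC of -0.05 in all 6 retinas, with 4 negative, and of -0.39 without Wfs1-KO replicate 2, with all 5 negative (50.1% of all genes) and 4 of the 5 lower without overlap between groups (11.0% of all genes).

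The proportions of filament subunits to each other were compared within each retina as ratios of CPM per kb, which do not depend on library scaling. These ratios were chosen after the values were seen and carry no test. Nefl per Ina was 2.62, 2.98 and 2.36 in WT and 2.06, 2.07 and 2.30 in Wfs1-KO retinas, and Nefh per Ina was 0.812, 0.728 and 0.681 in WT and 0.556, 0.462 and 0.615 in Wfs1-KO retinas. Both were lower in every Wfs1-KO retina than in every WT retina, Wfs1-KO replicate 2 included. They share Ina, and how often ratios of other gene pairs separate in this way was not computed. Nefm per Ina was 0.828, 0.785 and 0.774 in WT and 0.615, 0.990 and 0.661 in Wfs1-KO retinas, lower in replicates 1 and 3 and higher in replicate 2. In contrast, Nefh per Nefl overlapped between groups, at 0.281 ± 0.0334 in WT and 0.253 ± 0.0264 in Wfs1-KO retinas (SD, n = 3 each). Against Rbpms, which is not part of the axon, Nefl was at 7.06 to 8.91 in WT and 5.84 to 6.34 in Wfs1-KO retinas, and Nefh at 2.04 to 2.72 and 1.36 to 1.69. Nefm per Rbpms overlapped between groups, at 2.77, 2.35 and 2.31 in WT and 1.75, 2.92 and 1.82 in Wfs1-KO retinas. Ina per Rbpms (2.99 to 3.35 in WT, 2.75 to 2.95 in Wfs1-KO) and Rbpms2 per Rbpms (1.04 to 1.40 and 0.923 to 0.975) were also lower in every Wfs1-KO retina. The separation against Rbpms was thus not particular to Nefl and Nefh. These ratios all share Rbpms, which had a mean of 37.0 CPM in WT and 41.0 CPM in Wfs1-KO retinas.

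**Figure D3:**
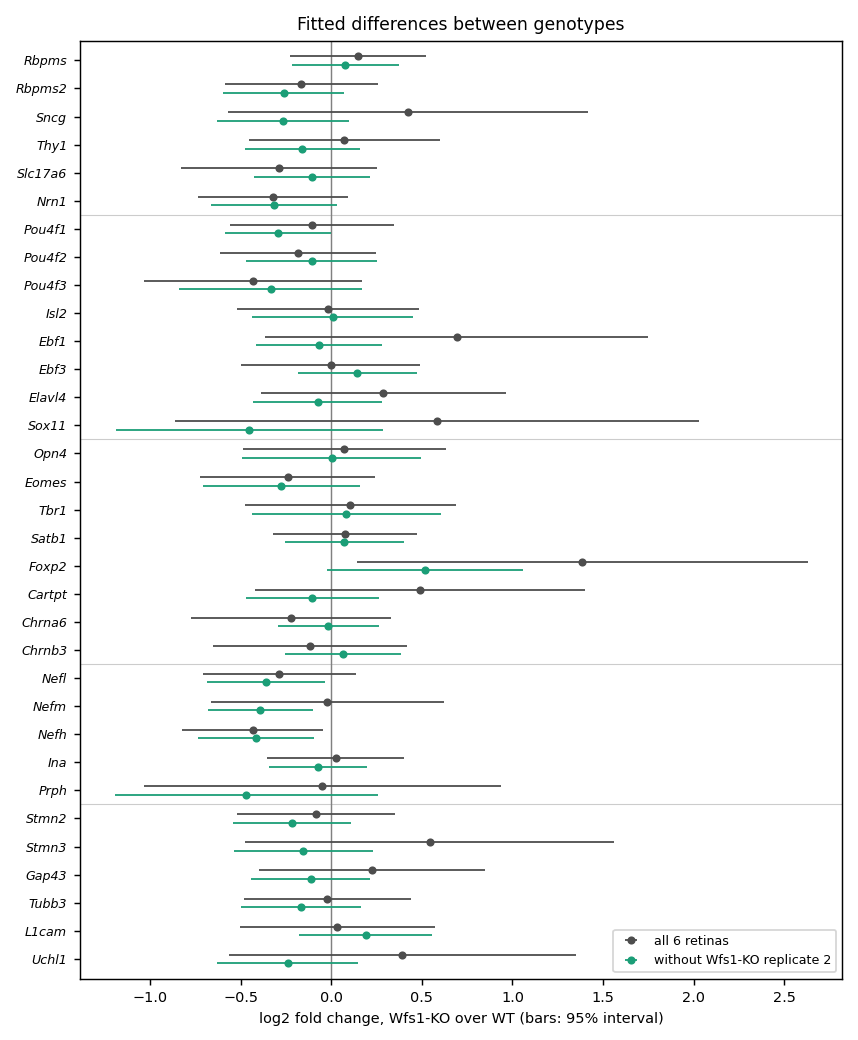
Log2FC, Wfs1-KO over WT, of each gene (x axis) with its 95% interval from edgeR as bars, in all 6 retinas (dark) and without Wfs1-KO replicate 2 (green). The intervals of Nefh lie below 0 in both fits and those of Nefl and Nefm without that retina only, that of Foxp2 lies above 0 in all 6 retinas only, while no gene passed the threshold after adjustment over all genes.

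Wfs1-KO replicate 2 was above the other 5 retinas for 5 of the 6 genes of axon growth and microtubules, by a small margin for Stmn2 and Tubb3 and by a wide one for Stmn3, Uchl1 and Gap43, and below them for L1cam. Stmn2, a tubulin-binding protein of growing and maintained axons, was at 98.5, 95.2 and 77.2 CPM in WT and 75.1, 99.2 and 81.4 CPM in Wfs1-KO retinas, overlapping, with a log2FC of -0.08 (SE 0.19). Tubb3, the neuronal beta-tubulin, was at 159, 119 and 135 CPM in WT and 123, 161 and 124 CPM in Wfs1-KO retinas, with a log2FC of -0.02 (95% interval -0.48 to 0.44). L1cam, an X-linked adhesion molecule of axon bundles, was at 46.2, 50.2 and 67.1 CPM in WT and 60.8, 42.8 and 63.6 CPM in Wfs1-KO retinas, also overlapping. Stmn3, a relative of Stmn2, had 423 CPM in Wfs1-KO replicate 2 and 143 to 206 CPM elsewhere, and Uchl1 had 415 CPM there and 154 to 233 CPM elsewhere. Gap43, a growth-cone protein that regenerating ganglion cells make, had 64.0 CPM there and 33.8 to 42.3 CPM elsewhere. Their log2FCs of 0.54, 0.39 and 0.22 became -0.15, -0.24 and -0.11 without that retina. The median of the class was 0.13 in all 6 retinas and -0.16 without Wfs1-KO replicate 2.

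Retinas differed from each other within the mutant group in how they placed these genes. Wfs1-KO replicate 1 was the lowest of the 6 retinas for 15 of the 33 genes, where it was the lowest for 8.93% of all genes tested. It was below every WT retina for 18 of 33 (18.9% of all genes tested), and Wfs1-KO replicate 3 was for 7 of 33 (20.0%). The median over the 33 genes of log2 CPM relative to the WT mean was -0.17 in Wfs1-KO replicate 1, 0.19 in replicate 2 and -0.10 in replicate 3, and 0.03, 0.04 and -0.09 in WT replicates 1, 2 and 3. Wfs1-KO replicate 3 was thus level with WT replicate 3, and the lower placing held for replicate 1 alone. For the 5 filament genes the medians were -0.47 in Wfs1-KO replicate 1, 0.20 in replicate 2 and -0.25 in replicate 3, against -0.15 to 0.08 in the WT retinas.

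Wfs1-KO replicate 2 was outside the range of the other 5 retinas for 24 of the 33 genes, above for 17 and below for 7, where 75.3% of all genes tested were outside, 38.4% above and 36.8% below. Its level relative to the mean of replicates 1 and 3 ranged from 0.587 for Chrna6 to 4.05 for Sox11, with a median of 1.19. Across all 18547 genes tested that ratio was lower for genes with longer exons (Spearman rho -0.41), and across the 33 genes rho was -0.20. These correlations are across genes of the same 3 libraries, whose values share depth and scaling, and are given as descriptions. Short transcripts such as Sncg, with 852 exonic bases, and Stmn3 were high in that retina, but so were the long transcripts of Foxp2, Ebf1 and Sox11. The part of transcript length in these differences was not tested.

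**Figure D4:**
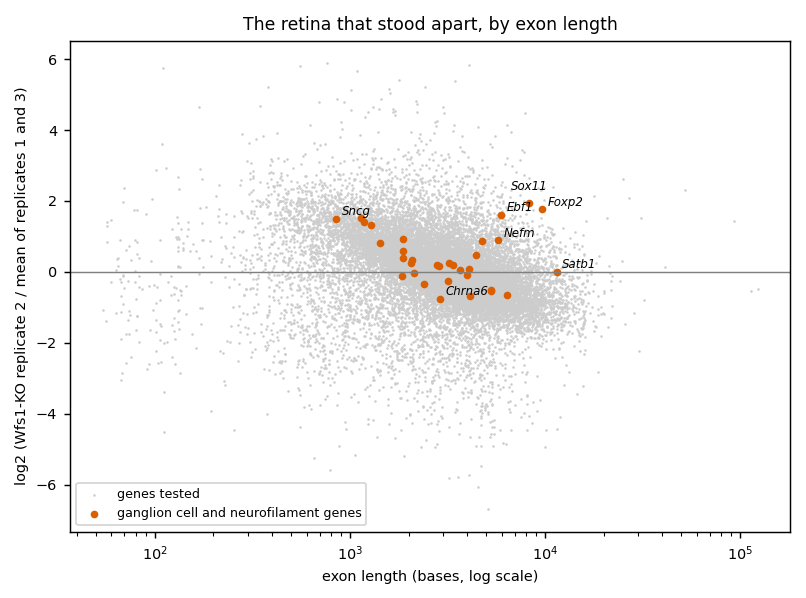
Log2 ratio of the CPM of Wfs1-KO replicate 2 to the mean of Wfs1-KO replicates 1 and 3, with 0.1 CPM added to both (y axis), against exon length in bases (x axis, log scale), for all 18547 genes tested (grey) and the 33 ganglion cell and neurofilament genes (orange, some named). The grey cloud slopes down with length (rho -0.41), while Sox11, Foxp2 and Ebf1 are long and high.

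Other cell types of the retina were read from marker lists in the same libraries. Amacrine cells, whose displaced members share the ganglion cell layer, had 1779.5 to 1953 CPM summed over 13 markers in WT and 1656 to 2107 CPM in Wfs1-KO retinas, with a median log2FC of 0.02, and 0.05 without Wfs1-KO replicate 2. Bipolar cells, which drive ganglion cells, had 1696 to 1775 CPM over 12 markers in WT and 1883 to 2037 CPM in Wfs1-KO retinas, the groups not overlapping, with medians of 0.16 and 0.18. Photoreceptors, the bulk of the tissue, had 67055 to 74728 CPM over 14 markers in WT and 52522 to 66843 CPM in Wfs1-KO retinas, again without overlap, with medians of -0.16 and -0.17, and 13 of 14 were negative without Wfs1-KO replicate 2. Of these 3 lists 0 genes passed the threshold in either edgeR fit, and at an unadjusted p under 0.05 there were none in all 6 retinas and, without Wfs1-KO replicate 2, 1 bipolar gene higher (2.80% of all genes) and 4 photoreceptor genes lower (2.39%). The lower filament values stood beside lower photoreceptor and higher bipolar sums in the same retinas, and the part of tissue make-up in them was not tested.

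The summed levels of Müller glia, astrocyte and pigment epithelium markers were highest in Wfs1-KO replicate 2, while Gfap was higher in every Wfs1-KO retina. Over 10 Müller glia markers the sum was 6383 to 7228 CPM in WT and 5834, 9454 and 6060 CPM in Wfs1-KO replicates 1, 2 and 3. The 6 astrocyte markers, of cells that lie among ganglion cell axons, had 618 to 780 CPM in WT and 645 to 1137 CPM in Wfs1-KO retinas, a sum made up mostly of Aldoc, with median log2FCs of 0.78 in all 6 retinas and 0.30 without Wfs1-KO replicate 2. Gfap, the intermediate filament of astrocytes and reactive glia, was at 19.2, 13.1 and 11.2 CPM in WT and 47.5, 104 and 21.2 CPM in Wfs1-KO retinas, higher in every Wfs1-KO retina. It passed the threshold with DESeq2 in all 6 retinas (adjusted p = 0.0499) and without Wfs1-KO replicate 2 (adjusted p = 0.00600), and not with edgeR (adjusted p = 0.979 and 0.379). The 10 myelin markers, whose cells belong to the optic nerve, had 62.3 to 68.4 CPM in WT and 67.2 to 96.1 CPM in Wfs1-KO retinas. Mbp alone had 29.7 to 39.1 CPM of the WT sums. Without Wfs1-KO replicate 2, 4 of the 8 myelin genes tested were positive and 4 negative. At an unadjusted p under 0.05 (edgeR) 2 were then lower (2.39% of all genes) and 0 higher. For pigment epithelium, a neighbouring tissue, 12 markers summed to 677 to 745 CPM in WT and 577, 1179 and 566 CPM in Wfs1-KO replicates 1, 2 and 3. Most of that sum was Rlbp1, which is also among the Müller glia markers. Rlbp1 had 537 to 625 CPM in WT and 480, 665 and 508 CPM in Wfs1-KO replicates 1, 2 and 3. The pigment epithelium list had a median log2FC of 0.43 in all 6 retinas and -0.75 without Wfs1-KO replicate 2. In that second fit Lrat, a retinol-esterifying enzyme, passed the threshold (2.38, 4.59 and 1.91 CPM in Wfs1-KO against 5.83 to 11.9 CPM in WT, log2FC -1.99, adjusted p = 0.0467, edgeR). With DESeq2 without that retina Lrat, Rpe65 and Rgr of this list passed, all lower in Wfs1-KO, with adjusted p-values of 7.32e-08, 0.0264 and 0.00586. The part of these other cells and tissues in the ganglion cell values was not tested.

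A second list of ganglion cell genes, none of them among the 33, had medians near those of the 33. Its genes are not all particular to ganglion cells, since Isl1 is also among the bipolar markers. Of 32 listed genes 31 were tested, and their median log2FC was -0.01 in all 6 retinas, with 15 positive and 16 negative, and -0.11 without Wfs1-KO replicate 2, with 8 positive and 23 negative (50.1% of all genes negative). None passed the threshold in edgeR's test in either fit, and at an unadjusted p under 0.05 there were 1 lower (0.566% of all genes) and 0 higher in all 6 retinas and 3 lower (2.39% of all genes) and 0 higher without Wfs1-KO replicate 2. The 3 with the highest mean CPM were Calb2, a calcium buffer, with 347 to 458 CPM in WT, Elavl3, an RNA-binding protein of neurons, and Vsnl1, a neuronal calcium sensor. Calb2 was at 307, 675 and 338 CPM in Wfs1-KO retinas, with a log2FC of 0.18 that became -0.28 without replicate 2. Elavl3 was at 132, 437 and 127 CPM in Wfs1-KO and 135 to 147 CPM in WT retinas, and Vsnl1 at 131, 159 and 145 CPM and 142 to 173 CPM.

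Scn4b, a sodium channel beta subunit, was singled out from that second list after its values were seen. It was at 10.9, 11.2 and 12.1 CPM in WT and at 5.63, 2.65 and 7.13 CPM in Wfs1-KO retinas, lower in every Wfs1-KO retina, with a log2FC of -1.15 (SE 0.36, adjusted p = 0.979, edgeR) in all 6 retinas and -0.85 (SE 0.19, adjusted p = 0.279, edgeR) without Wfs1-KO replicate 2. With DESeq2 without that retina it passed the threshold (adjusted p = 0.0150), and with DESeq2 in all 6 retinas it did not (adjusted p = 0.382). This subunit is known for its part in fast repetitive firing of neurons. Scn4b lies on chromosome 9, from 45138395 to 45154152, as do Thy1, Isl2, Rbpms2 and Eomes of the 33 genes.

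Axonal genes outside the neurofilaments had a median difference near 0. Of 38 listed genes of the axonal cytoskeleton, transport and nodes 37 were tested, and their median log2FC was -0.0007 in all 6 retinas and 0.07 without Wfs1-KO replicate 2, with 22 positive and 15 negative. Of these 0 passed the threshold in either fit, 1 was higher (2.80% of all genes) and 0 lower at an unadjusted p under 0.05 without that retina, and 0 in either direction with all 6. The 3 with the highest mean CPM were Kif1b, Map1b and Kif1a. Map1b, a microtubule-associated protein, had 370 to 737 CPM in WT and 604 to 1390 CPM in Wfs1-KO retinas. Kif1a and Kif1b, kinesin motors of axonal transport, had 521 to 744 and 636 to 1047 CPM in WT and 277 to 711 and 498 to 1057 CPM in Wfs1-KO retinas, the low ends being those of Wfs1-KO replicate 2. These genes are used by many retinal neurons, so that their values are less tied to ganglion cells than those of the neurofilaments.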

How the data were processed

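Whole-retina RNA of 3 WT and 3 Wfs1-KO mice was sequenced after a TruSeq preparation. The authors trimmed reads with Trimmomatic, aligned them to mm10 with STAR and deposited raw read counts per gene from featureCounts (versions 0.39, 2.5.3a and 1.6.4 in the submitters' processing notes). Columns were matched to samples by tissue, genotype letter (C for control, W for Wfs1) and replicate number, and 2 further columns of per-sample values were not used. The genotypes were tested on these counts by the quasi-likelihood method of edgeR 4.0.16 (R 4.3.3) with TMM factors, the filterByExpr defaults, a trended dispersion and no covariate, with Benjamini-Hochberg adjustment over all genes tested and 0.05 as the threshold. Standard errors and 95% intervals came from the same fits. DESeq2 1.42.0, limma-voom (limma 3.58.1), other scalings and filters, a replicate block and each retina left out were alternatives. The pipeline was tested on simulated counts. Gene positions come from GENCODE M21 on mm10. A floor of 3 counts corresponds to 0.0291 to 0.170 CPM, which covers counting error only. No pair of libraries of the same genotype was a duplicate, and pairs across genotypes were not checked. Every one of the 33 genes could be named, and from each other list the 3 genes with the highest mean CPM and those past the threshold. Genes and lists were chosen with earlier results of these data known, so that their counts and medians are descriptions.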

Additional observations from a re-analysis of the deposited data

How the results depend on the processing

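The number of the 33 genes past the threshold was 0 under every alternative run. Over all genes tested it was 2 with edgeR in all 6 retinas, 9 without the low-count filter, 49 with DESeq2 and 35 with limma-voom and sample quality weights, and between 0 (without any one WT retina) and 24 (without Wfs1-KO replicate 2) when 1 retina was left out. Alternatives added after the data were seen, each without Wfs1-KO replicate 2, gave 95 with DESeq2, 24 with RLE factors and 25 with total counts. Same-numbered retinas did not deviate together (correlations of -0.23, -0.11 and 0.08 for replicates 1, 2 and 3). With 3 retinas per group, and Wfs1-KO replicate 2 standing apart, these correlations cannot exclude a pairing by number. A replicate block gave 1 gene past the threshold, 0 of the 33 and a median log2 fold change of -0.0039.

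The median of the filament genes, -0.05 in all 6 retinas, was -0.25 with limma-voom and -0.36 with quality weights, between -0.39 and 0.079 with 1 retina left out, and -0.39, -0.39 and -0.36 in the 3 added alternatives. The pan-ganglion cell markers ranged from -0.21 to 0.048 with 1 retina left out, and were at -0.21 in the added DESeq2 and RLE fits. The subtype genes were at -0.013 with quality weights. Of 495 log2 fold changes of single genes under alternatives, 444 kept their sign and 51, of 19 genes, changed it. With quality weights these were Sncg (-0.15), Thy1 (-0.10), Isl2 (0.056), Ebf1 (-0.085), Ebf3 (0.10), Elavl4 (-0.056), Sox11 (-0.48), Opn4 (-0.045), Cartpt (-0.061), Chrnb3 (0.013), Ina (-0.061), Stmn3 (-0.014), Gap43 (-0.030) and Uchl1 (-0.13). Ebf3 was at 0.010 with upper-quartile scaling, 0.0065 with total counts and 0.010 with at least 10 counts in every retina, Nefm at 0.0056 with upper-quartile scaling, and Ina at -0.0062 with no filter. With 1 retina left out the ranges were -0.27 to 0.69 for Sncg, -0.16 to 0.19 for Thy1, -0.14 to 0.11 for Isl2, -0.066 to 0.96 for Ebf1, -0.12 to 0.14 for Ebf3, -0.076 to 0.44 for Elavl4, -0.45 to 0.96 for Sox11, -0.0036 to 0.13 for Satb1, -0.11 to 0.76 for Cartpt, -0.24 to 0.065 for Chrnb3, -0.39 to 0.16 for Nefm, -0.074 to 0.079 for Ina, -0.47 to 0.33 for Prph, -0.15 to 0.80 for Stmn3, -0.11 to 0.38 for Gap43, -0.17 to 0.093 for Tubb3, -0.074 to 0.19 for L1cam and -0.24 to 0.63 for Uchl1. Nefh and Nefl were negative under every alternative run. So were Rbpms2, Slc17a6, Nrn1, Pou4f1, Pou4f2, Pou4f3, Eomes, Chrna6 and Stmn2, so that this was not particular to the filament genes. The cause of these changes was not tested. The common dispersion was 0.128 in all 6 retinas and 0.0322 without Wfs1-KO replicate 2, which limits what the 6 retinas together can show.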

Other observations

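Genes tied to the response of ganglion cells and other neurons to axon injury, signalling genes such as Map3k12 and Lifr among them, were also read. Of 29 listed genes 27 were tested, with a median log2FC (log2 fold change, Wfs1-KO over WT) of 0.41 in all 6 retinas, 22 positive and 5 negative, and of 0.07 without Wfs1-KO replicate 2, 17 positive and 10 negative, and 0 passed the threshold (edgeR's test). At an unadjusted p under 0.05 there were 2 higher (2.24% of all genes) and 0 lower in all 6 retinas, and 1 higher (2.80%) and 1 lower (2.39%) without that retina. Atf3, the transcription factor most used as a sign of axon injury, was at 11.9 to 12.9 CPM in WT and 12.6, 17.2 and 13.3 CPM in Wfs1-KO replicates 1, 2 and 3, with a log2FC of 0.23 (SE 0.20), and 0.07 (SE 0.16) without replicate 2. Jun, its partner downstream of stress kinases, was at 59.0, 52.1 and 68.8 CPM in WT and 58.5, 44.1 and 59.3 CPM in Wfs1-KO retinas, overlapping. Map3k12, the kinase DLK upstream of Jun in injured ganglion cells, was at 61.7 to 77.1 CPM in WT and 75.5, 20.9 and 71.4 CPM in Wfs1-KO retinas. Lifr, a cytokine receptor subunit, was at 51.0 to 79.4 CPM in WT and 48.6 to 72.5 CPM in Wfs1-KO retinas.

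Gadd45b, a stress-response gene, and Socs3, an inhibitor of cytokine signalling that restrains axon regrowth, were above every WT retina in every Wfs1-KO retina. They were singled out after their values were seen. No other of the 27 tested genes was higher without overlap, where 5.01% of all genes tested were. Gadd45b had 7.59, 7.17 and 5.96 CPM in WT and 9.20, 23.2 and 10.5 CPM in Wfs1-KO retinas, and Socs3 had 5.24, 4.58 and 5.11 CPM in WT and 6.36, 14.8 and 6.86 CPM. Their log2FCs were 1.05 and 0.90 in all 6 retinas (edgeR adjusted p of 0.979 for both). Without Wfs1-KO replicate 2 they were 0.50 and 0.40 (edgeR adjusted p of 0.821 and 0.962). Glial cells express both genes. Over the list, 21 of 27 tested genes were highest in Wfs1-KO replicate 2, as were 38.4% of all genes tested.

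Vascular markers summed to 196 to 251 CPM in WT and 227 to 265 CPM in Wfs1-KO retinas, horizontal cell markers to 457 to 497 and 470 to 542 CPM, and lens markers to 2.29 to 3.09 and 3.36 to 8.79 CPM.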
